A study of Mus musculus with 4 samples.

Results

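Interferon-stimulated genes are the genes that a cell switches on when it senses an interferon, the secreted proteins that warn tissue of infection. The 43 interferon-stimulated genes described here were a list of gene symbols chosen with earlier results of these data known. All 43 were among the 31053 genes of the files. They were followed gene by gene and as a sum in T cells sorted from the brain's border tissues of young and aged mice. All mice were female C57BL/6, the young ones 10 weeks and the aged ones 18 months old, and 5 mice were pooled into each library. There were 4 libraries, of young meninges, aged meninges, young choroid plexus and aged choroid plexus (CP), and each was a sort of CD4 and CD8 T cells read with the 10x 5′ gene expression kit. The meninges are the membranes around the brain, and the choroid plexus is the tissue in the ventricles that makes cerebrospinal fluid. Whether cells inside blood vessels were kept apart in these sorts is not given in the sources used here.

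With 1 library per group there was no replicate of any age or tissue, so no test was made. Every interval below is an exact 95% interval that covers counting error only, not the spread between mice or between sorts. The intervals of levels and ratios treat UMIs as independent, so they also leave out the spread between cells of a library. The libraries held 718 to 1695 cells and 2295950 to 4262917 UMIs (unique molecular identifiers, the tags that mark single captured transcripts). After the cell filters 605 to 1408 T cells with a Cd3d, Cd3e or Cd3g UMI were left per library, with a median of 2312.5 to 3198 UMIs per cell. T cells with a Cd4 UMI and no Cd8a or Cd8b1 UMI were called CD4 (160 to 362 cells per library). Those with a Cd8a or Cd8b1 UMI and no Cd4 UMI were called CD8 (160 to 473 cells). T cells with none of the 3 transcripts were called neither (269 to 735 cells), and a missing UMI does not show that the transcript was missing. The libraries shared 0 to 3 cell barcodes pairwise. A cell with a Ccr7 UMI, a receptor of naive and central memory T cells, made up 57.5% and 62.5% of young meningeal and CP CD4 T cells, against 9.67% and 11.3% of the aged ones.

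Type I interferons bind the receptor IFNAR, whose kinases JAK1 and TYK2 switch on a complex with STAT2 and IRF9 that binds the interferon-stimulated response element (ISRE). Type II interferon, the product of Ifng, acts on genes that carry the gamma-activated site (GAS). The products of these genes detect viral nucleic acid, block translation and entry, tag proteins with ISG15 and feed the signal forward through IRF7. In T cells they are known both as a mark of recent interferon exposure and as part of the response to antigen. The 43 genes were set into 8 groups by role: 4 transcription factors, 4 IFIT proteins, 4 genes of the ISG15 system, 10 nucleic acid and nucleotide enzymes, 3 nucleic acid sensors, 6 GTPases, 5 membrane proteins and 7 other regulators.

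The response elements themselves are shown for the genes that the age comparisons below turn on. RefSeq promoter windows (250 bases before to 50 after the start of the gene, GRCm38.p6) were found for 35 of the 43 genes. Some genes had several windows, and a gene was counted if any of them held the core. The core of the ISRE was searched as TTTCNNTTTC on both strands. It was found for 20 of these 35 genes (57.1%) and for 1079 of all 27025 genes with a window (3.99%). The GAS core, searched as TTCNNNGAA, was found for 11 of the 35 (31.4%) and for 9.55% of all genes with a window. Of the 14 genes that moved by age, 13 had a window and 9 of these held an ISRE core in it. In 7 of the 9 the core lay in the upstream 250 bases, and those 7 are shown. Capitals mark the ISRE cores, on either strand, in the stretches printed 5′ to 3′ along the strand of the gene:
Ifit1 (chr19:34640765-34640833, plus strand): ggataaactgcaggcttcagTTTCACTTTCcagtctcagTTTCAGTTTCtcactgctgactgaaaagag
Ifit3 (chr19:34583353-34583436, plus strand): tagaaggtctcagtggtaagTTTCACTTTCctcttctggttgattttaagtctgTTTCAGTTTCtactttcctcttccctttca
Ifit3b (chr19:34607749-34607832, plus strand): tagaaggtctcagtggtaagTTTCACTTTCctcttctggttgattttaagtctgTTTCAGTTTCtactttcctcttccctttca
Isg15 (chr4:156200855-156200916, minus strand): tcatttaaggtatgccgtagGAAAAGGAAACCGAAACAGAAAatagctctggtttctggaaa
Oas1a (chr5:120907526-120907565, minus strand): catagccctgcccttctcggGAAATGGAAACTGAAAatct
Rsad2 (chr12:26456543-26456592, minus strand): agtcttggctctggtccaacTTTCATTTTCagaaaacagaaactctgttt
Ifitm2 (chr7:140955978-140956027, minus strand): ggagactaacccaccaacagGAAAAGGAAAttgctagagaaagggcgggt

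The Isg15 and Oas1a stretches hold 3 and 2 cores that overlap, while Ifit1, Ifit3 and Ifit3b each hold 2 separate cores. The stretches of Ifit3 and its near copy Ifit3b are the same over their 84 bases, and their aligned upstream windows matched at 188 of 218 bases (86.2%). A match of these letters is a description of the window and not a measured binding site.

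The sum of the 43 genes was highest in aged meninges in each class of T cell. It is given as CPM (counts per 1000000), the UMIs of the genes scaled to the UMIs of all genes in the same cells. The young and aged meningeal CD4 T cells held 4043 and 6266 CPM, and those of CP 3416 and 4360 CPM. CD8 T cells held 2908 and 4420 CPM in young and aged meninges, and 2960 and 3087 CPM in young and aged CP. In neither T cells the sums were 3595 and 5286 CPM in the meninges, and 3920 and 3996 CPM in CP. Within each class the interval of aged meninges lay above those of the other 3 libraries. Between classes they met, since aged meningeal CD8 T cells (4284 to 4560 CPM) and aged CP CD4 T cells (4209 to 4516 CPM) had overlapping intervals.

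**Figure D1:**
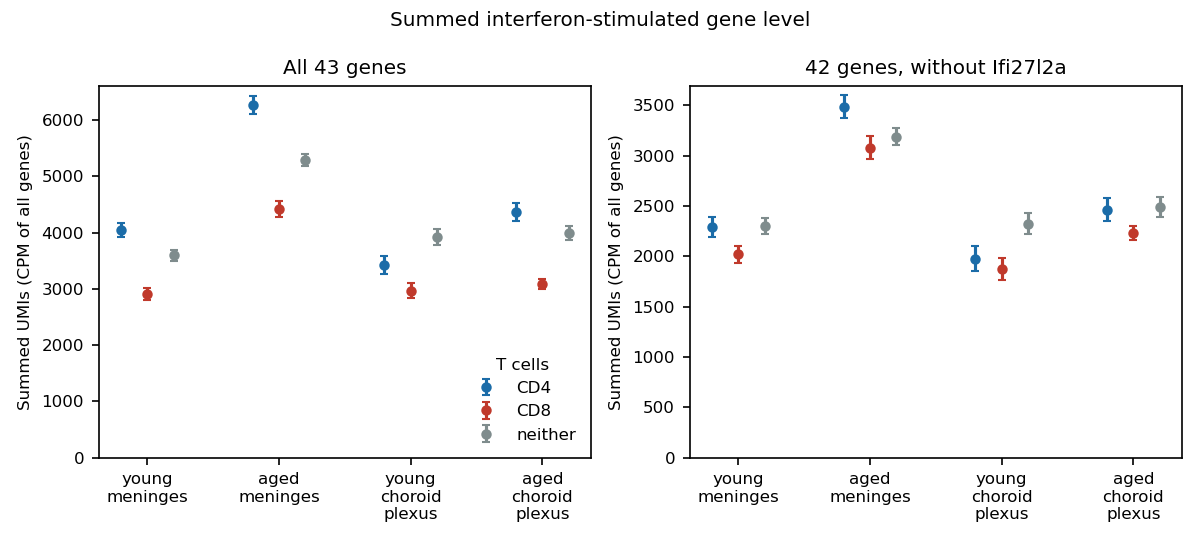
Summed level (CPM) of all 43 genes (left) and of 42 genes without Ifi27l2a (right) in the 4 libraries (x axis), by T-cell class (colour). Points are 1 library each and bars are exact 95% Poisson intervals. Aged meninges is the highest library for each class in both panels.

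As a ratio, the aged meningeal sum was 1.55 times the young one in CD4 (interval 1.49 to 1.62), 1.52 times in CD8 (1.45 to 1.59) and 1.47 times in neither T cells (1.42 to 1.52). In CP the ratio was 1.28 in CD4 T cells (1.2 to 1.35), 1.04 in CD8 (0.989 to 1.1) and 1.02 in neither (0.973 to 1.07). In the last 2 of these the interval held 1. The median gene of all genes tested also moved, by 0.04 to 0.08 log2 units in the meninges and by 0.14 to 0.18 in CP. Relative to that shift the CP sums of CD8 and neither T cells lay below 0, at -0.12 and -0.11 on the log2 scale.

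The share of Ccr7-positive cells was lower in the aged libraries, where these sums were higher, so the sums were also taken over cells without a Ccr7 UMI. There the log2 ratio of aged over young in the meninges was 0.41 in CD4, 0.82 in CD8 and 0.30 in neither T cells, against 0.63, 0.60 and 0.55 over all cells. In CP CD4 T cells it was 0.04 against 0.35. A cell without a Ccr7 UMI can still be naive. A UMI of the naive T cell list (Ccr7, Lef1, Tcf7, Klf2 and S1pr1) was in 91.7% of young meningeal CD4 T cells, against 57.5% for Ccr7. In aged meningeal CD4 T cells it was in 63.8%. Without Ccr7-positive cells, 108 young meningeal and 60 young CP CD4 T cells were left. The erythroid list (Hba-a1, Hba-a2, Hbb-bs and Hbb-bt) moved with the aged meninges, since a UMI of it was in 16.9% to 23.5% of aged meningeal T cells, 5.20% to 8.27% of young meningeal ones and at most 1.25% of CP ones. A UMI of the B cell list was in 14.6% to 36.5% of aged and 41.9% to 51.2% of young T cells. The part of these transcripts in the sums was not tested. Over cells without any UMI of the lists of other cell types, the meningeal log2 ratio was 0.43 for the CD4 and 0.77 for the CD8 class, and the CP ratio for the CD4 class 0.69.

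Ifi27l2a, a small interferon-inducible membrane protein of the mitochondria, supplied 27.7% to 44.4% of the summed UMIs. Without it the aged to young ratio was 1.52 in meningeal CD4 (1.44 to 1.61), 1.52 in CD8 (1.44 to 1.61) and 1.39 in neither T cells (1.33 to 1.45). In CP it was 1.25 in CD4, 1.19 in CD8 (1.12 to 1.27) and 1.07 in neither T cells (1.01 to 1.14). The ratio lay above 1 with and without this gene in all 6 comparisons. In CP CD8 and neither T cells, however, the interval held 1 with the gene and lay above 1 without it. The shift of all genes given above was not taken out of these ratios.

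Single genes were read with a rule of size: at least 20 UMIs in the higher population, and a log2 ratio of at least 1 after adding 10 CPM to both levels. Between 28 and 40 of the 43 genes had the UMIs to be read in an age comparison. The genes under 20 UMIs entered no count, and Oas2 and Oasl1 reached 20 UMIs in none. A gene with few UMIs in both ages could pass only through the age in which it was high. The rule was met by 14 genes in at least 1 of the 6 age comparisons, 36 times in all, and each time the aged level was the higher.

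In meningeal CD4 T cells 10 of 40 genes were higher with age and 0 lower, while 4.25% of all genes tested were higher and 1.87% lower by the same rule. In meningeal CD8 T cells 8 of 34 were higher and 0 lower, against 3.22% and 1.84% of all genes. In meningeal neither T cells 8 of 39 were higher and 0 lower, against 3.45% and 1.42%. In CP CD4 T cells 6 of 28 were higher and 0 lower, against 7.53% and 1.99%. CP CD8 T cells had 1 of 31 genes higher and 0 lower, a share close to that of all genes, which was 2.84% higher and 1.01% lower. CP neither T cells had 3 of 34 higher and 0 lower, against 4.67% and 1.84%. The list and the rule were chosen with earlier results of these data known, so an excess over all genes is not independent evidence.

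The median log2 ratio of the genes read was 0.57 in meningeal CD4, 0.60 in CD8 and 0.43 in neither T cells, beside 0.08, 0.04 and 0.05 over all genes tested. In CP it was 0.23, 0.26 and 0.04, beside 0.17, 0.18 and 0.14. Of the 33 genes read in all 3 meningeal classes, 27 had a positive ratio in each class and 1 a negative one in each. For 14 of the 33 the counting interval of the ratio lay above 0 in each class. In CP, 6 of 24 genes were positive in each class, 1 was negative in each, and the interval lay above 0 in each class for Isg20 alone. These counts over classes were not taken for all genes, so no background share stands beside them. The 3 classes of a tissue come from the same young and the same aged library, so they are not replicates of each other.

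**Figure D2:**
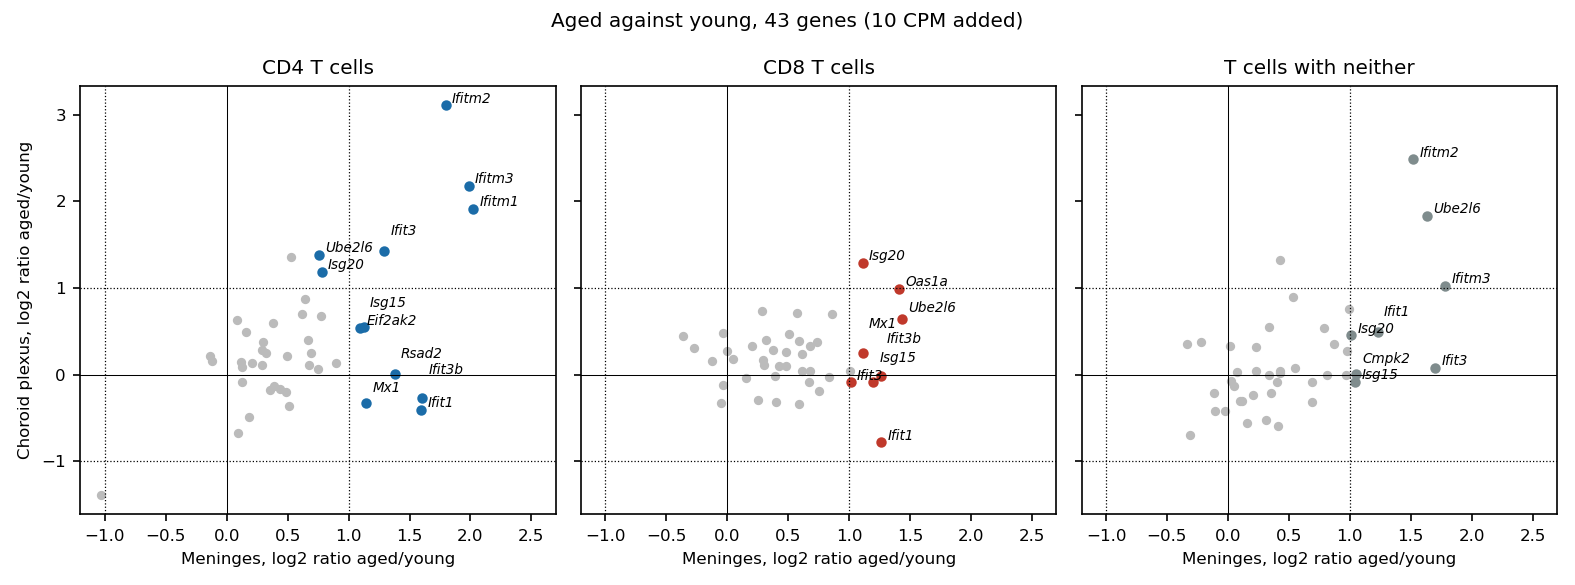
Log2 ratio of aged over young in the meninges (x axis) and the choroid plexus (y axis), 1 point per gene and 1 panel per T-cell class, after adding 10 CPM. Coloured, named points met the rule of size in a tissue, dotted lines mark a log2 ratio of 1, and grey points beyond a line had under 20 UMIs. Ifitm1 and Ifitm2 had 0 UMIs in some young populations, so their plotted ratios depend on the CPM added. In each class most named points lie right of the vertical dotted line, while Ifitm2 lies above the horizontal one in CD4 and neither T cells.

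Each level below is a CPM value, and each group of 4 levels runs in the order young meninges, aged meninges, young CP, aged CP. A UMI count from 5′ ends is not scaled to gene length, so levels are compared between libraries and not between genes. A log2 ratio has 10 CPM added to both levels, and the interval after it is that of the plain ratio of the levels. Gene positions are those of GENCODE on GRCm38.

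The IFIT proteins bind foreign RNA at its 5′ end and hold back its translation. Ifit1, Ifit2, Ifit3 and Ifit3b lie in the same stretch of chromosome 19, and 3 of the 4 were higher with age in a meningeal class. Their summed level was 3.02 times higher in aged than young meningeal CD4 T cells (2.33 to 3.95), 2.29 times in CD8 (1.80 to 2.94) and 2.80 times in neither T cells (2.27 to 3.47). In CP the same ratio was 1.16 (0.751 to 1.82), 0.786 (0.592 to 1.05) and 1.11 (0.860 to 1.44), and each of these intervals held 1.

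Ifit1 (ENSMUSG00000034459, chr19:34640871-34650009) stood at 23.7, 91.8, 36.2 and 24.9 CPM in CD4 T cells. The CD8 levels were 22.7, 68.5, 56.7 and 28.8 CPM, and in neither T cells at 29.2, 82.0, 38.4 and 58.1 CPM. Aged meninges was the highest library in each class. The aged over young log2 ratio in the meninges was 1.60 in CD4 (1.26 to 2.71), 1.26 in CD8 (0.89 to 2.34) and 1.23 in neither T cells (0.99 to 2.01). In CP CD8 T cells it was -0.78, with an interval of -1.62 to -0.32 that lay wholly below 0. There 9 of the 36 Ifit1 UMIs of the young library came from 1 cell. Without the top cell of each population the ratio was -0.60.

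Ifit3 (ENSMUSG00000074896, chr19:34583531-34588731) encodes another IFIT protein. It stood at 37.2, 106, 4.03 and 27.7 CPM in CD4 T cells, at 49.2, 109, 41.0 and 38.0 CPM in CD8 and at 23.2, 98.1, 42.1 and 45.1 CPM in neither T cells. Aged meninges was again the highest in every class. The meningeal log2 ratio was 1.29 (0.93 to 2.11), 1.01 (0.65 to 1.67) and 1.70 (1.55 to 2.65) in CD4, CD8 and neither T cells. In CP CD4 T cells it was 1.43 (0.74 to 5.92), on 2 UMIs in the young and 20 in the aged library, and it missed the minimum of UMIs when 1 cell was left out.

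Ifit3b (ENSMUSG00000062488, chr19:34607970-34613401), the near copy of Ifit3, stood at 5.64, 37.5, 12.1 and 8.31 CPM in CD4 T cells. The levels were 7.57, 32.0, 9.46 and 9.22 CPM in CD8 and 5.31, 20.2, 12.4 and 17 CPM in neither T cells. Its meningeal ratio was 1.60 (1.39 to 4.44) in CD4 and 1.26 (0.92 to 3.42) in CD8 T cells. Reads that the 2 copies share cannot be told apart by a gene count, so the split between Ifit3 and Ifit3b is uncertain. The same holds for Oas1a and its near copies and for the 3 Ifitm genes. The fourth member, Ifit2, had a UMI in all 12 populations and ranged from 7.88 to 39.7 CPM without meeting the rule by age.

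Isg15 (ENSMUSG00000035692, chr4:156199424-156200818) encodes the ubiquitin-like protein that is joined to other proteins after interferon. It stood at 117, 268, 72.5 and 111 CPM in CD4 T cells, at 94.6, 230, 94.6 and 88.7 CPM in CD8 and at 116, 249, 123 and 115 CPM in neither T cells. The aged meningeal level was the highest of the 4 libraries in each class, and the other 3 lay between 72.5 and 123 CPM. The meningeal log2 ratio was 1.12 (0.86 to 1.53), 1.2 (0.93 to 1.64) and 1.04 (0.85 to 1.37). In CP it was 0.55 (0.03 to 1.22), -0.08 (-0.53 to 0.36) and -0.08 (-0.49 to 0.31). In young CP, 26 of the 60 Isg15 UMIs of CD8 and 33 of the 99 of neither T cells came from 1 cell. Without the top cell of each population the CP ratios were 0.65, 0.56 and 0.24, so the last 2 changed sign, and the meningeal ones 1.24, 1.27 and 1.32. Over cells without a Ccr7 UMI the meningeal ratio was 0.58 in CD4 and 0.33 in neither T cells, which no longer met the rule.

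Ube2l6 (ENSMUSG00000027078, chr2:84798828-84810335) encodes the enzyme that carries ISG15 to its ligase, and its pattern was not that of Isg15. It stood at 15.8, 33.6, 6.04 and 31.9 CPM in CD4 T cells, at 1.89, 22.1, 1.58 and 8.07 CPM in CD8 and at 5.31, 37.5, 1.24 and 30.1 CPM in neither T cells. Both aged libraries stood above both young ones in each class. The meningeal ratio was 1.43 (1.50 to 6.69) in CD8 and 1.63 (1.76 to 4.09) in neither T cells, and the CP ratio 1.38 (0.67 to 4.78) in CD4 and 1.83 (2.01 to 9.95) in neither T cells. The young levels rested on 1 to 14 UMIs. In aged meningeal CD8 T cells Ube2l6 had 20 UMIs, 2 of them in 1 cell, and it missed the minimum when that cell was left out. Herc6 and Usp18, the ISG15 ligase and protease of the mouse, lay between 18.1 and 58.6 CPM and between 0 and 29.8 CPM, and met the rule in no age comparison.

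Isg20 (ENSMUSG00000039236, chr7:78913424-78920396), an exonuclease of single-stranded RNA, was also higher in both aged tissues. It stood at 64.3, 118, 38.2 and 99.7 CPM in CD4 T cells, at 41.6, 102, 45.7 and 126 CPM in CD8 and at 50.5, 112, 75.6 and 107 CPM in neither T cells. Every aged level lay above every young one of the same class. The log2 ratio met the rule in meningeal CD8 (1.11, 0.75 to 1.84) and neither T cells (1.01, 0.76 to 1.55), and in CP CD4 (1.19, 0.64 to 2.20) and CD8 T cells (1.29, 0.90 to 2.08). Over cells without a Ccr7 UMI these 4 ratios were 0.81, 0.54, 0.60 and 0.80, and none met the rule.

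The remaining enzymes that met the rule did so in 1 meningeal class each. Oas1a (ENSMUSG00000052776, chr5:120896256-120907521), which makes the 2′-5′-linked adenylates that switch on RNase L, stood at 27.1, 43.5, 2.01 and 20.8 CPM in CD4 T cells. The CD8 levels were 6.62, 34.2, 6.30 and 22.5 CPM, and in neither T cells at 18.6, 46.8, 14.9 and 32.1 CPM. The log2 ratio of 1.41 (1.16 to 3.8) in meningeal CD8 T cells met the rule, and in CP CD8 T cells it was 0.99 (0.36 to 3.78).

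Cmpk2 and Rsad2 are neighbours on chromosome 12, and the second makes an altered nucleotide from the product of the first. Cmpk2 (ENSMUSG00000020638, chr12:26469204-26479837) stood at 13.5, 29.6, 10.1 and 11.1 CPM in CD4 T cells, at 12.3, 25.4, 7.88 and 6.91 CPM in CD8 and at 9.29, 30.02, 14.9 and 15.0 CPM in neither T cells. Rsad2 (ENSMUSG00000020641, chr12:26442746-26456452) stood at 5.64, 30.6, 4.03 and 4.16 CPM in CD4 T cells, at 11.4, 19.9, 7.88 and 9.22 CPM in CD8 and at 10.6, 20.2, 9.92 and 11 CPM in neither T cells. Aged meninges was the highest library for both genes in each class. Cmpk2 met the rule in meningeal neither T cells (1.05, 0.82 to 2.66) and Rsad2 in meningeal CD4 T cells (1.38, 1.06 to 4.16).

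Eif2ak2 (ENSMUSG00000024079, chr17:78852564-78882573) encodes PKR, the kinase that stops translation when it meets double-stranded RNA. It stood at 9.03, 30.6, 12.1 and 22.2 CPM in CD4 T cells, at 14.2, 28.7, 23.6 and 24.8 CPM in CD8 and at 15.3, 21.4, 17.4 and 9.02 CPM in neither T cells. The rule was met in meningeal CD4 T cells alone (1.09, 0.61 to 3.09). Samhd1 (ENSMUSG00000027639, chr2:157097533-157135265), a dNTP hydrolase and the enzyme of the group with most UMIs, stood at 200, 246, 175 and 190 CPM in CD4 T cells. It stood at 167, 151, 129 and 145 CPM in CD8 and at 236, 218, 200 and 171 CPM in neither T cells, and its 6 age ratios lay between -0.21 and 0.29. Of the 10 enzymes 5 met the rule, and the other 5 were Samhd1, Oas2, Oas3, Oasl1 and Oasl2.

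Of the GTPases, 1 of 6 met the rule. Mx1 (ENSMUSG00000000386, chr16:97447035-97462907), whose product traps viral ribonucleoproteins and which is known to be disrupted in most laboratory mice including C57BL/6, stood at 12.4, 39.5, 6.04 and 2.77 CPM in CD4 T cells. It stood at 9.46, 32.0, 15.8 and 20.7 CPM in CD8 and at 8.63, 26.6, 11.2 and 11 CPM in neither T cells. Its meningeal ratio was 1.14 (0.68 to 2.78) in CD4 and 1.11 (0.68 to 2.96) in CD8 T cells. Ifi47 (ENSMUSG00000078920, chr11:49076587-49096974), an immunity-related GTPase that answers mainly to type II interferon and had most UMIs of its group, stood at 209, 189, 149 and 175 CPM in CD4 T cells. It stood at 166, 218, 147 and 181 CPM in CD8 and at 195, 202, 213 and 193 CPM in neither T cells. In meningeal CD8 T cells its ratio was 0.37 (0.09 to 0.70), and in the other 5 age comparisons the interval held 0. The GTPases together had a ratio of 1.53 (1.33 to 1.75) in meningeal and 1.35 (1.16 to 1.59) in CP CD8 T cells, and the interval held 1 in the other 4 comparisons.

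The membrane proteins held the highest age ratios of the list. Ifitm1, Ifitm2 and Ifitm3, on chromosome 7, encode proteins that stop virus envelopes from fusing with endosomes. Their UMIs were few and came from few cells. Ifitm2 (ENSMUSG00000060591, chr7:140954837-140955987) stood at 2.26, 32.6, 0 and 76.2 CPM in CD4 T cells, at 0, 2.21, 1.58 and 9.22 CPM in CD8 and at 1.33, 22.5, 0 and 46.1 CPM in neither T cells. Its log2 ratio was 1.80 (1.89 to 6.96) in meningeal CD4 and 1.52 (2.13 to 7.18) in meningeal neither T cells. Set against the 3 counts that 0 UMIs in a library allow, the observed aged CP level was 12.6-fold in CD4 and 12.4-fold in neither T cells. These 2 values leave out the counting error of the aged level, so they are not lower limits. In aged CP CD4 T cells 19 of the 55 Ifitm2 UMIs came from 1 cell.

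Ifitm3 (ENSMUSG00000025492, chr7:141009586-141010770) stood at 4.51, 47.4, 12.1 and 90.0 CPM in CD4 T cells, at 3.78, 17.7, 4.73 and 5.19 CPM in CD8 and at 3.32, 35.8, 13.6 and 38.1 CPM in neither T cells. Both aged libraries stood above both young ones in each class, though by little in CP CD8 T cells. The ratio was 1.98 (1.94 to 5.33) in meningeal CD4, 1.78 (2.13 to 5.1) in meningeal neither, 2.18 (1.70 to 4.40) in CP CD4 and 1.02 (0.48 to 2.60) in CP neither T cells. A UMI of any of the 3 Ifitm genes was in 8.56% of aged meningeal and 13.5% of aged CP CD4 T cells, against 2.36% and 1.25% of the young ones.

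The CD4 T cells with an Ifitm UMI were deeper than the rest, with median totals of 3285 against 2270 UMIs in aged meninges and 4272 against 2527 UMIs in aged CP. A UMI of the B cell list was in 54.8% of these 31 aged meningeal cells against 27.2% of the rest, and in 48.4% of the 31 aged CP cells against 34.7%. For the macrophage or monocyte list the shares were 16.1% against 2.72% and 6.45% against 0%, and for the plasmacytoid dendritic cell list 12.9% against 0.906% and 9.68% against 2.51%. In aged CP CD4 T cells the macrophage or monocyte list had 185 UMIs, all in 2 cells, and both had an Ifitm UMI. In neither T cells the B cell list was in 27.9% of the 43 aged meningeal cells with an Ifitm UMI against 27.5%, and in 21.3% of the 47 aged CP cells against 35.7%. The median of Cd3d, Cd3e and Cd3g UMIs of the CD4 T cells with an Ifitm UMI was 11 and 13, against 8 and 9 in the rest. Whether these values have a part in the Ifitm levels was not tested.

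Ifitm1 (ENSMUSG00000025491, chr7:140967221-140969825) had 80 UMIs in 11 cells over all libraries. It stood at 0, 30.6, 0 and 27.7 CPM in CD4 T cells, at 0, 0, 1.58 and 4.03 CPM in CD8 and at 0, 3.46, 0 and 15.0 CPM in neither T cells. In aged meningeal CD4 T cells 30 of the 31 UMIs came from 1 cell, and in aged CP CD4 T cells 18 of the 20 did. Without that cell the log2 ratio was 0.14 in the meninges and 0.35 in CP, so that the age ratio of Ifitm1 rested on 1 cell in each tissue. Leaving out the top cell ended no Ifitm2 or Ifitm3 call.

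**Figure D3:**
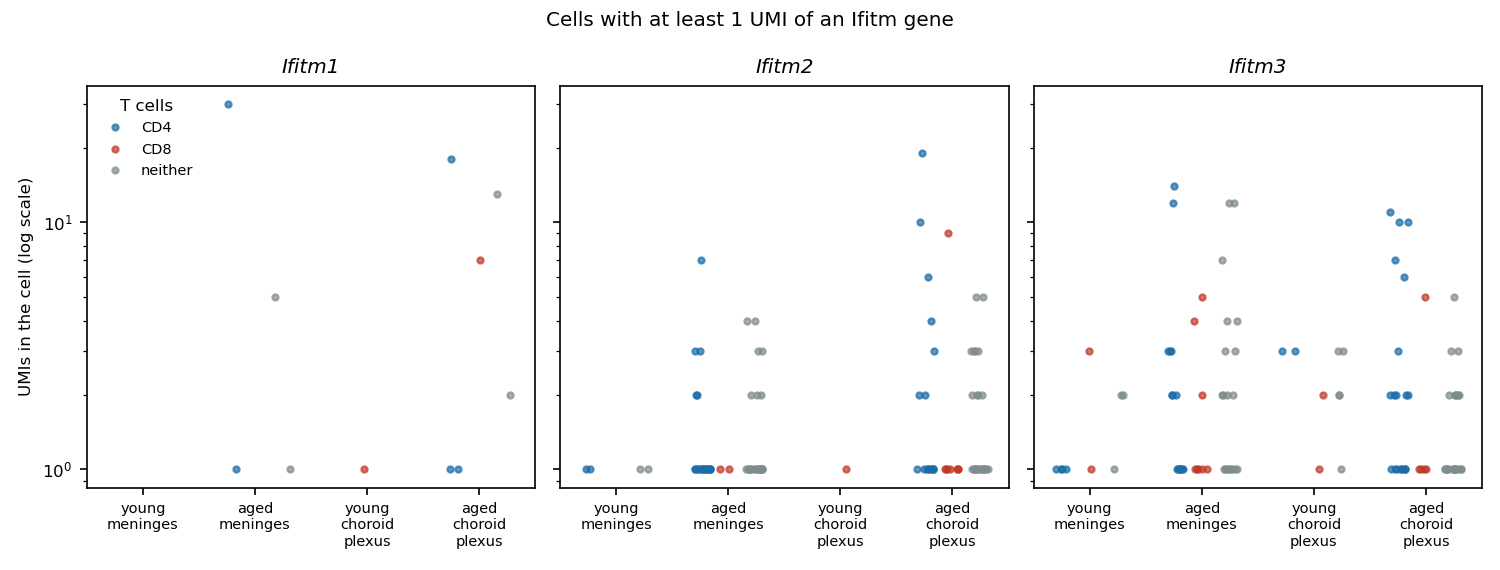
UMIs per cell (y axis, log scale) of Ifitm1, Ifitm2 and Ifitm3 in cells with at least 1 UMI of the gene, by library (x axis) and T-cell class (colour), 1 point per cell. The highest Ifitm1 point, a cell with 30 UMIs, is an aged meningeal CD4 T cell, and Ifitm2 and Ifitm3 have points in many aged cells and few young ones.

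Bst2 (ENSMUSG00000046718, chr8:71534255-71537456), the tetherin that holds budding virus at the cell surface, had most UMIs of the membrane group. It stood at 165, 272, 137 and 165 CPM in CD4 T cells, at 155, 284, 156 and 153 CPM in CD8 and at 143, 255, 119 and 177 CPM in neither T cells. Aged meninges was the highest library in each class, at log2 ratios of 0.69 (0.43 to 1.02), 0.83 (0.58 to 1.16) and 0.79 (0.59 to 1.07). These lay under the size of the rule although their intervals lay above 0.

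Neither the 4 transcription factors nor the 3 sensors nor the 7 other regulators held a gene that met the rule by age. Irf1 (ENSMUSG00000018899, chr11:53770014-53778374), the factor induced by type II interferon, stood at 131, 120, 94.6 and 107 CPM in CD4 T cells. It stood at 125, 122, 88.3 and 127 CPM in CD8 and at 155, 132, 95.4 and 127 CPM in neither T cells. Its meningeal ratios were -0.12, -0.04 and -0.22, each with an interval that held 0. Irf7, whose levels are given below with the tissues, had meningeal ratios of 0.49 (0.14 to 0.91), 0.75 (0.45 to 1.16) and 0.33 (0.07 to 0.65), each with an interval above 0 and under the size of the rule. The summed transcription factors had meningeal ratios of 1.14 (0.970 to 1.33), 1.25 (1.07 to 1.46) and 1.1 (0.975 to 1.23).

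Zbp1 (ENSMUSG00000027514, chr2:173206612-173218923), a sensor of left-handed nucleic acid that can start necroptosis, stood at 104, 135, 96.6 and 84.5 CPM in CD4 T cells. It stood at 92.7, 108, 64.6 and 83.5 CPM in CD8 and at 87.0, 121, 90.5 and 92.2 CPM in neither T cells, with aged meninges the highest in each class. Ifi27l2a (ENSMUSG00000079017, chr12:103442167-103443680) stood at 1751, 2782, 1441 and 1900 CPM in CD4 T cells, at 888, 1341, 1086 and 854 CPM in CD8 and at 1297, 2096, 1595 and 1505 CPM in neither T cells. Its meningeal ratio was 0.66 (0.58 to 0.76), 0.59 (0.47 to 0.72) and 0.69 (0.61 to 0.77). In CP CD8 T cells it was -0.34 (-0.48 to -0.21).

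The 29 genes that met the rule in no age comparison ranged widely below it. Among those with the UMIs to be read, the log2 ratio ran from -0.14 to 0.90 in meningeal CD4, from -0.28 to 0.86 in CD8 and from -0.34 to 0.87 in neither T cells, with medians of 0.34, 0.45 and 0.23. In CP it ran from -0.36 to 0.87, from -0.34 to 0.72 and from -0.59 to 0.89, with medians of 0.15, 0.28 and -0.01. Over the whole list, 33 of the 43 genes had their highest level in a population of aged meninges, 4 in aged CP, 5 in young CP and 1 in young meninges. The same ranking was not made for all genes, so these counts have no background share. In 38 of the 43 a UMI was found in all 12 populations.

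**Figure D4:**
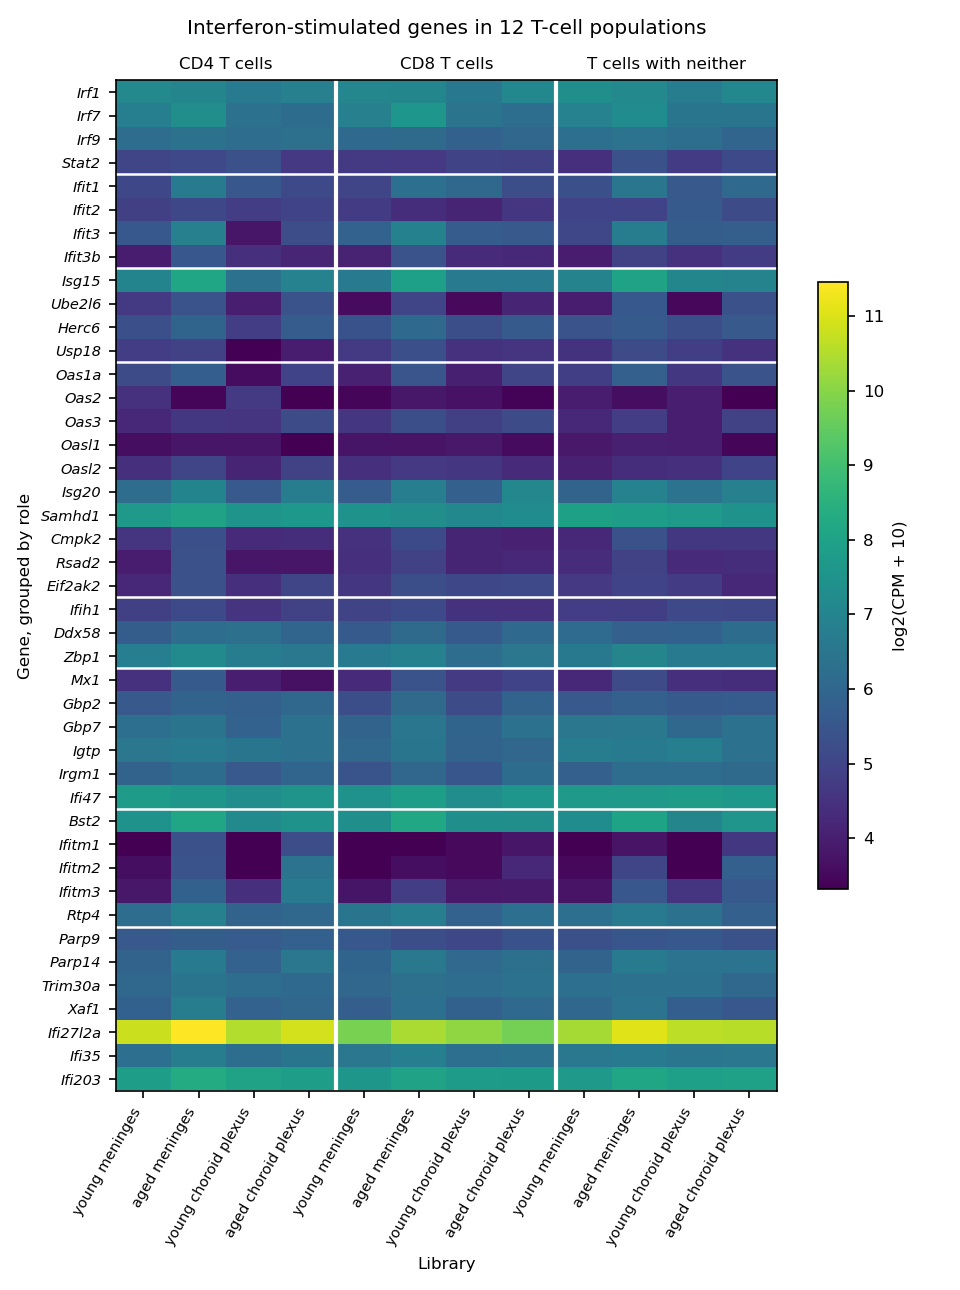
Level of each of the 43 genes (rows, grouped by role) as log2(CPM + 10) in the 12 populations (columns, 4 libraries within each T-cell class). Ifi27l2a is the brightest row throughout, and the Ifitm rows are dark in the young libraries.

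Between the tissues, the aged libraries stood further apart than the young ones over all cells of a class. The CP to meninges ratio of the summed level was 0.845 in young CD4 (0.797 to 0.895), 1.02 in young CD8 (0.960 to 1.08) and 1.09 in young neither T cells (1.04 to 1.14). In the aged libraries it was 0.696 (0.667 to 0.726), 0.698 (0.670 to 0.728) and 0.756 (0.728 to 0.785). The aged ratio was the lower in each class, and the difference between the ages was not tested. Over cells without markers of other cell types, the young ratio was the lower in CD4 T cells. In neither T cells the young and aged ratios were then of similar size in opposite directions. In CD8 T cells the aged ratio stayed the lower. The age and tissue ratios share their libraries and are not independent.

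In aged CD4 T cells 8 of 40 genes met the rule between tissues, against 2.34% of all genes. Lower in CP were Ifit1 at -1.54 (-2.70 to -1.14), Ifit3 at -1.62, Ifit3b at -1.38, Isg15 at -1.2 (-1.65 to -0.91), Rsad2 at -1.52, Mx1 at -1.95 and Irf7 at -1.13. Ifitm2 was higher in CP, at 1.02 (0.58 to 1.89). In aged CD8 T cells 6 of 36 met it, against 1.50% of all genes, and each was lower in CP. These were Ifit1 at -1.02, Ifit3 at -1.31, Ifit3b at -1.13, Isg15 at -1.28, Cmpk2 at -1.07 and Irf7 at -1.33. In aged neither T cells 1 of 40 did, against 1.59%, which was Isg15 at -1.05 (-1.42 to -0.81).

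Irf7, the factor that amplifies the type I response, lay outside the naming rule and is named after its values were seen. It stood at 105, 151, 74.5 and 63.7 CPM in CD4 T cells, at 105, 183, 77.2 and 66.8 CPM in CD8 and at 112, 143, 79.3 and 79.2 CPM in neither T cells. The meninges were above CP at both ages in each class. In the young libraries the rule was met by 2 of 25 genes in CD4 T cells, against 4.11% of all genes, by 1 of 26 in CD8, against 2.91%, and by 0 of 28 in neither T cells, against 2.23%. The 2 in CD4 were Ifit3 and Oas1a, both lower in CP on 2 and 1 UMIs, and the gene in CD8 was Ifit1, higher in CP at 1.03 (0.54 to 2.13).

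CD8 T cells held less of the summed level than CD4 T cells of the same library. The CD8 to CD4 ratio of the sum was 0.719 in young meninges, 0.866 in young CP, 0.705 in aged meninges and 0.708 in aged CP. Without Ifi27l2a these ratios were 0.881 (0.829 to 0.937), 0.949 (0.871 to 1.03), 0.884 (0.841 to 0.929) and 0.907 (0.858 to 0.960). The median log2 ratio of the list genes read was -0.10, -0.03, -0.19 and -0.01 in the same order. Over all genes tested it was -0.13, -0.05, -0.16 and -0.01, so the median list gene was close to the median of all genes. The neither to CD4 ratio was 0.889, 1.15, 0.843 and 0.917 in the same order. Without Ifi27l2a that of young meninges and of aged CP no longer lay below 1, at 1.003 (0.949 to 1.06) and 1.01 (0.952 to 1.08).

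The CD8 to CD4 rule was met by 1 of 28 genes in young meninges (2.84% of all genes), 1 of 23 in young CP (3.62%), 4 of 41 in aged meninges (4.54%) and 6 of 35 in aged CP (3.92%). Lower in CD8 were Ifi27l2a in aged meninges (-1.05, -1.15 to -0.96) and in aged CP (-1.14, -1.26 to -1.05), and Ifitm2 and Ifitm3 in both. In aged CP Ifitm3 had a ratio of -2.72 (-5.31 to -3.11) and Ifitm2 of -2.16 (-3.95 to -2.22). Ifitm1 was also lower in CD8 in both aged libraries, Oas1a in young meninges and Ube2l6 in aged CP. Mx1 was higher in CD8 in aged CP, on 2 UMIs in CD4, and Ifit3 in young CP, again on 2 UMIs in CD4. T-cell receptor gamma or delta transcripts were found in 18.9% and 32.8% of the aged meningeal and CP CD8 T cells, against 1.1% and 1.74% of the CD4 ones, and their part in these differences was not tested.

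The neither to CD4 rule was met by 0 of 29 genes in young meninges (0.616% of all genes), 1 of 27 in young CP (0.838%), 1 of 41 in aged meninges (0.927%) and 1 of 34 in aged CP (0.827%). These were Ifit3, higher in neither T cells of young CP against 2 UMIs in CD4, Ifitm1, lower in aged meninges, and Ifitm3, lower in aged CP at -1.06 (-1.86 to -0.64).

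A few cells held a large part of the UMIs in every population. With each cell thinned to 1000 UMIs, and 0 to 25 shallower cells left out per population, the median cell held 2 to 4 UMIs of the 43 genes. The 5% of cells with most held 20.5% to 28.5% of them. Cells with at least 10 UMIs of the list made up 19.9% of aged meningeal CD4 (15.9% to 24.5%), 12% of CD8 (8.44% to 16.5%) and 15.1% of neither T cells (12.5% to 17.9%). In the other libraries they made up 3.65% to 11.3%, the highest being aged CP neither T cells (8.16% to 15.1%).

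Cells with a UMI of Ifit1, Ifit2, Ifit3 or Ifit3b were, at equal depth, also most frequent in aged meninges. At 1000 UMIs per cell they were 15.2% of aged meningeal CD4 (11.6% to 19.3%), 13.1% of CD8 (9.37% to 17.7%) and 11% of neither T cells (8.78% to 13.5%). Young meninges had 5.53%, 7.48% and 6.54%, young CP 8.18%, 7.64% and 6.74%, and aged CP 5.24%, 5.15% and 8.70%. In CD4 T cells the aged meningeal interval met that of young CP (4.43% to 13.6%). In CD8 T cells it met those of both young libraries, and in neither T cells those of every other library. Without thinning, aged meninges held the highest share in CD4 (22.4%) and CD8 T cells (26.3%). In neither T cells it held 15.4%, below young CP (17.1%) and aged CP (17.04%). No sorted cell type that should lack these genes was at hand, so the share that free RNA gives was not measured.

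Within a library, the other 39 genes were compared between cells with and without an IFIT UMI at the same depth. In aged meninges 168 cells had such a UMI and 1172 did not. The share of cells with a UMI of the gene was higher in the first for 38 of 39 genes, and the intervals of 33 lay apart. The same comparison was not made over all genes in any library, so these counts cannot show that the pattern is particular to the list. Isg15 was in 54.8% (46.9% to 62.4%) against 7.08% (5.68% to 8.70%), and Rsad2 in 14.9% (9.87% to 21.2%) against 0.512% (0.188% to 1.11%). Bst2 was in 48.2% against 15.7%, and Ifi27l2a in 88.7% against 57.4%. The genes whose intervals met were Ifitm1, Ifitm2, Stat2, Oas2, Irf1 and Irf9, of which Ifitm2 had 1.79% against 1.19% and Irf1 17.9% against 11.7%.

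In the other libraries fewer cells had an IFIT UMI, and fewer intervals lay apart. They did for 13 of 39 genes in young meninges (64 and 917 cells), 8 in young CP (43 and 540 cells) and 17 in aged CP (66 and 974 cells). Isg15 was in 32.8% against 4.80% in young meninges, 23.3% against 3.89% in young CP and 36.4% against 5.75% in aged CP. Irf7, Irgm1, Isg15, Oasl2 and Zbp1 lay apart in all 4 libraries. Genes named in these comparisons of cells were chosen after their values were seen, and cells of 1 library are not replicates.

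**Figure D5:**
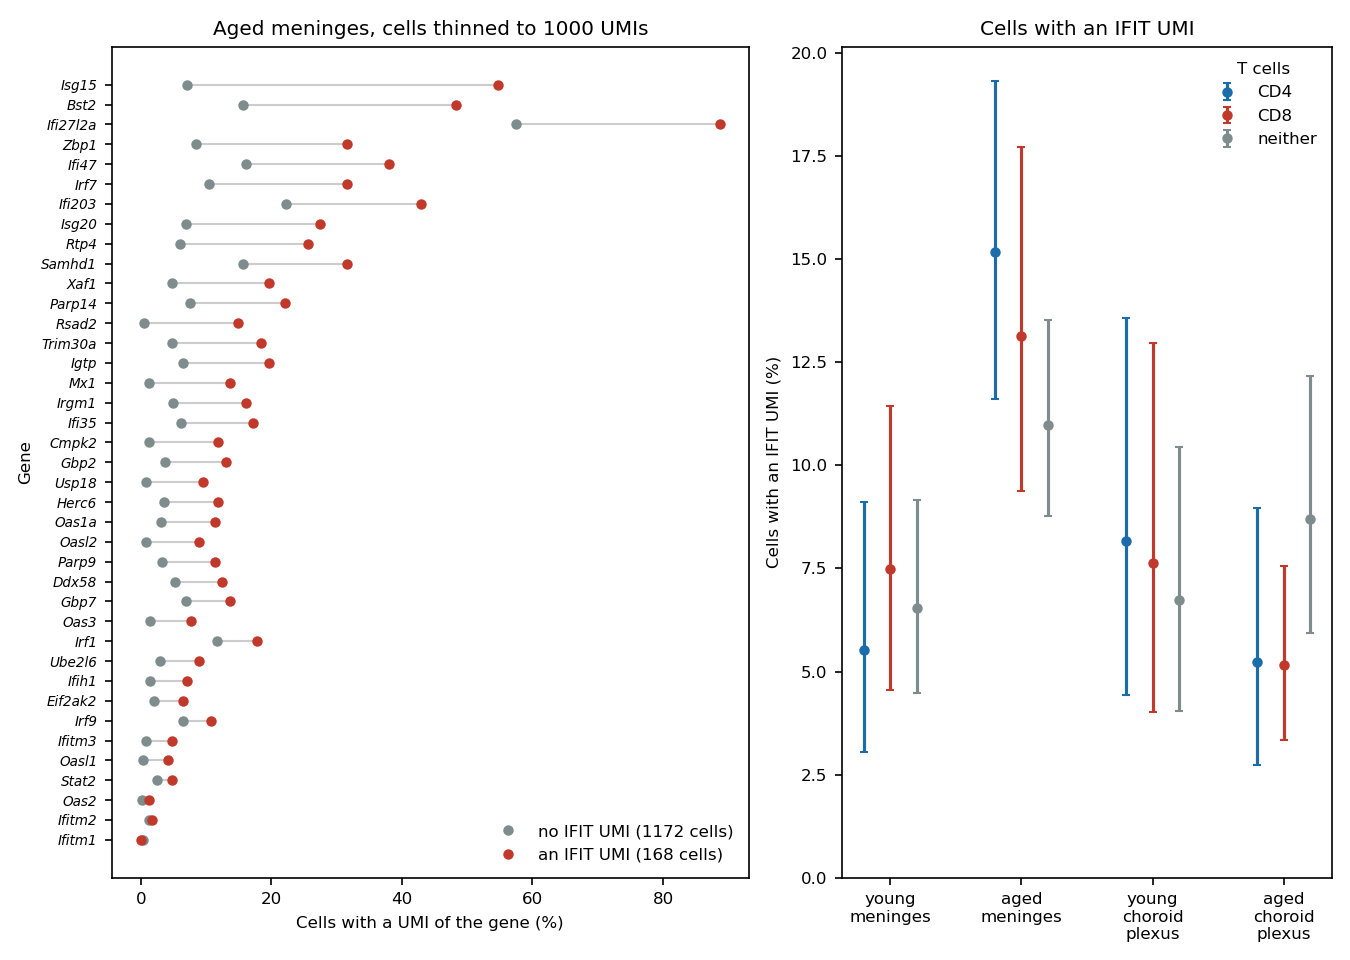
Left, share of aged meningeal T cells (x axis, %) with a UMI of each of the other 39 genes (rows), in 168 cells with an IFIT UMI (red) and 1172 without (grey). Right, share of cells (%) with an IFIT UMI by library and T-cell class, with exact 95% Clopper-Pearson intervals. Cells are thinned to 1000 UMIs, the widest gap at left is that of Isg15, and the aged meningeal points are the highest at right.

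The wider pathway was read from a list of ligands, receptors, kinases and factors, inhibitors, sensors and further inducible genes. Of the ligands, Ifng had 545 UMIs, while Ifna1, Ifna2, Ifna4, Ifna5, Ifnb1, Ifnl2 and Ifnl3 had 0, and transcripts of cells outside the sort are not measured here. In meningeal CD4 T cells 5 of 55 genes were higher with age and 1 lower. The counts were 4 of 52 and 1 in CD8, and 6 of 62 and 1 in neither T cells. Of all genes 4.25%, 3.22% and 3.45% were higher and 1.87%, 1.84% and 1.42% lower. In CP the counts were 4 of 46 higher and 2 lower, 3 of 55 and 1, and 4 of 51 and 1. There 7.53%, 2.84% and 4.67% of all genes were higher and 1.99%, 1.01% and 1.84% lower. The share of higher genes in CP CD4 T cells was close to that of all genes. So was the share of lower genes in each meningeal class and in CP neither T cells.

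The genes that met the rule in the same direction in both tissues were Ifng, Ly6a, Socs1 and Ifngr2. The share of all genes that do so was not taken. Ifng rose in CD4 T cells from 26.0 to 115 CPM in the meninges (log2 1.79) and from 10.1 to 73.4 CPM in CP (2.06). In CD8 T cells it rose from 15.1 to 59.7 CPM (1.47) and from 4.73 to 20.7 CPM (1.06). The young CP levels of Ifng were close to or under the 10 CPM added, so their log2 ratios depend on that value. Ly6a, the surface protein Sca-1 that both interferon types induce, was higher with age in all 3 classes of both tissues. In CD8 T cells it went from 134 to 685 CPM in the meninges and from 121 to 614 CPM in CP. Socs1, which shuts down the JAK kinases, went from 75.6 to 162 CPM and from 64.4 to 253 CPM in CD4 T cells. Ifngr2, the signalling chain of the Ifng receptor, was lower in CD4 T cells, going from 51.9 to 11.8 CPM and from 44.3 to 15.2 CPM.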

How the data were processed

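The authors deposited 1 matrix of unscaled UMI counts per library, with genes as 1 axis and barcodes as the other, from Cell Ranger. The submitters' processing notes name Cell Ranger 5.1.0, STAR and mm10, while the file headers give version 3.1.0. Cells with 200 to 7000 genes and at most 5% mitochondrial UMIs were kept, Scrublet doublets were removed (scanpy 1.11.5; 16 and 22 cells in young and 0 and 5 in aged meninges and choroid plexus), and T cells needed a Cd3d, Cd3e or Cd3g UMI. UMIs were summed per library and class. Levels carry exact Poisson intervals, ratios exact conditional intervals and shares Clopper-Pearson intervals. The rule of size and the intervals were tried on simulated Poisson counts. Such counts lack the clustering of UMIs in cells, so the trial could not show how well either holds for these data. Genes named with all values met the rule of size in at least 1 of 6 age comparisons or had most UMIs in their role group. Pathway genes were named if they met it in the same direction in both tissues. Members, lists and rules were chosen with earlier results of these data known. Alternatives were thinning to 1000 UMIs, 1 CPM or 10 UMIs as limits, other totals and centring, a 10% mitochondrial limit, doublets kept, and subsets of cells. Cells with both Cd4 and Cd8a or Cd8b1 UMIs were left out.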

Additional observations from a re-analysis of the deposited data

Results flagged for a closer look

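The log2 ratio of aged over young had opposite signs in the 2 tissues, with counting intervals on opposite sides of 0, for 3 genes. The share of all genes that meet this condition was not taken. Ifit1 in CD8 T cells was higher with age in the meninges (1.26) and lower in the choroid plexus (-0.78). Ifi27l2a in CD8 T cells was higher in the meninges (0.59) and lower in the choroid plexus (-0.34). Rtp4, a chaperone of receptors at the membrane, was higher in meningeal neither T cells (0.41) and lower in those of the choroid plexus (-0.59). With 1 library per group the difference between the tissues was not tested.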

How the results depend on the processing

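The summed level was higher with age in all 3 meningeal classes and lower in aged choroid plexus than in aged meninges under every alternative tried. With 0 doublets called in aged meninges, keeping doublets left that library unchanged and could not probe doublets there. The age ratio of choroid plexus CD8 T cells ran from -0.12 to 0.25 and that of neither T cells from -0.16 to 0.24. Without the cell with most UMIs of a gene, 4 of 31 genes changed sign by age in the first and 3 of 34 in the second, and 0 in the other 4 comparisons. None of the 36 age results of single genes changed direction, and 21 of them no longer met the rule after thinning, 18 without cells holding markers of other cell types, 12 without Ccr7-positive cells, 4 after centring, 4 without the cell with most UMIs of the gene, 3 with other totals and 2 with the 10% mitochondrial limit. Thinning and taking fewer cells leave fewer UMIs for the minimum of 20, by construction. Other causes were not tested. Values that moved are given as log2 ratios of the summed level, then as numbers of genes that met the rule. The alternatives without the 5% of cells with the largest share and without the top cell of a gene were chosen after seeing the data. No paired analysis was possible because each group had 1 library, and for the same reason no replicate could be left out.

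With cells thinned to 1000 UMIs, the age ratio was 0.80, 0.69 and 0.66 in meningeal CD4, CD8 and neither T cells, and -0.055 and 0.24 in CD8 and neither T cells of the choroid plexus. The tissue ratio was -0.092 and 0.12 in young CD4 and CD8, and -0.62 and -0.31 in aged CD8 and neither T cells. The neither to CD4 ratio of young choroid plexus was 0.062 and the CD8 to CD4 ratio of aged choroid plexus -0.68. The genes numbered 2 and 1 by age in choroid plexus CD8 and neither T cells, 0, 0 and 3 by tissue in young CD4, young CD8 and aged CD8, 0, 2 and 2 for CD8 to CD4 in choroid plexus of young mice and in meninges and choroid plexus of aged mice, and 0, 0 and 2 for neither to CD4 in the same 3.

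Centred on the median of all genes tested, the age ratio was 0.55 and 0.50 in meningeal CD4 and neither T cells and 0.18, -0.12 and -0.11 in the choroid plexus. The tissue ratio was -0.10 and 0.23 in young CD4 and neither and -0.59 in aged CD8 T cells. The CD8 to CD4 ratio was -0.34 in young and -0.34 in aged meninges, the latter with 2 genes. With totals that leave out ribosomal, mitochondrial and receptor genes, the age ratio was 0.52, 0.47 and 0.45 for meningeal classes and 0.22, -0.046 and -0.10 in the choroid plexus. For CD8 to CD4 the ratio was then -0.33, -0.38 and -0.42 in young meninges, aged meninges and aged choroid plexus. The genes numbered 2 by age in choroid plexus CD8 and 2 for neither to CD4 in aged choroid plexus.

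Over cells without a Ccr7 UMI, the age ratio was 0.41, 0.82 and 0.30 for meningeal classes and 0.037, -0.060 and -0.16 in the choroid plexus. The tissue ratio was -0.16, 0.35 and 0.036 in young CD4, CD8 and neither T cells. For CD8 to CD4 it was -0.95 in young meninges and -0.45 in young choroid plexus, where the neither to CD4 ratio was 0.043. The genes numbered 13, 3 and 2 by age in meningeal CD8, choroid plexus CD4 and choroid plexus CD8, 1 and 3 by tissue in young CD4 and aged neither, 5 for CD8 to CD4 in young meninges, and 0 and 0 for neither to CD4 in young and aged choroid plexus.

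Over cells without markers of other cell types, the age ratio was 0.43 and 0.77 in meningeal CD4 and CD8 and 0.69 and -0.082 in choroid plexus CD4 and neither T cells. The tissue ratio was -0.68, -0.062 and 0.35 in the young classes and -0.42, -0.84 and -0.33 in the aged ones. For CD8 to CD4 it was -0.81 in young meninges and -0.89 in aged choroid plexus. The neither to CD4 ratio was -0.50, 0.53, -0.33 and -0.24 in the meninges and choroid plexus of young, then of aged mice. The genes numbered 4, 2 and 1 by age in meningeal CD4 and choroid plexus CD8 and neither, 5, 0, 1 and 5 by tissue in young CD4, CD8, neither and aged CD4, 3 and 3 for CD8 to CD4 in young meninges and aged choroid plexus, and 2, 3 and 0 for neither to CD4 in young meninges and young and aged choroid plexus.

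Without the 5% of cells with the largest share, the age ratio was 0.75 and 0.50 in meningeal CD4 and neither and 0.11 in choroid plexus neither T cells. The tissue ratio was -0.099 in young CD4 and -0.30 in aged neither T cells, and the neither to CD4 ratio -0.10, 0.087 and -0.35 in young meninges, young choroid plexus and aged meninges. Without Ifi27l2a, the age ratio was 0.47 in meningeal neither and 0.25 and 0.099 in choroid plexus CD8 and neither T cells, and the tissue ratio -0.11 and 0.017 in young CD8 and neither T cells. The CD8 to CD4 ratio was then -0.18, -0.075, -0.18 and -0.14 in the meninges and choroid plexus of young, then of aged mice. The neither to CD4 ratio changed sign to 0.0041 in young meninges and 0.018 in aged choroid plexus, and was -0.13 in aged meninges.

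With 1 CPM added, 13, 2 and 5 genes met the rule by age in meningeal neither and choroid plexus CD8 and neither T cells, 7 by tissue in aged neither T cells, and 2 and 2 for neither to CD4 in young and aged choroid plexus. With doublets kept, 2 did by age in choroid plexus CD8 T cells. Without the top cell of each gene, 2 did by age in choroid plexus CD8, 0 and 3 by tissue in young CD8 and aged neither, 2, 0 and 2 for CD8 to CD4 in young meninges, young choroid plexus and aged meninges, and 0 and 0 for neither to CD4 in aged meninges and aged choroid plexus. With the 10% mitochondrial limit the age ratio of choroid plexus neither T cells was 0.099, and 0 genes met the rule for neither to CD4 in aged choroid plexus. With a minimum of 10 UMIs, 3 did for CD8 to CD4 in young meninges and 3 for neither to CD4 in young choroid plexus.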

Other observations

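Cells with both a Cd4 and a Cd8a or Cd8b1 UMI entered no comparison. Their summed level of the 43 genes was 4804 CPM in young meninges (interval 4300 to 5352, 18 cells), 3872 CPM in young choroid plexus (3483 to 4293, 16 cells), 5737 CPM in aged meninges (5351 to 6144, 30 cells) and 4295 CPM in aged choroid plexus (4011 to 4594, 33 cells). A class with both transcripts can hold 2 cells under 1 barcode.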
